A study of Mus musculus with 4 samples.

Results

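The 9 genes described here encode transcription factors that direct blood progenitors toward granulocytes or monocytes: Spi1, Cebpa, Cebpb, Cebpd, Cebpe, Irf8, Klf4, Gfi1 and Zeb2. They were chosen by name, and all 9 were among the 14323 genes listed and among the 11370 genes tested, whose normalized count averaged 1 or more over the 4 libraries. RNA-seq was done on colonies grown from 2 kinds of C57BL/6 mouse progenitor, MPP2 cells and short-term haematopoietic stem cells (ST-HSCs), with 1 library for each of MPP2 with 4OHT, MPP2 with ethanol, ST-HSC with 4OHT and ST-HSC with ethanol. Per the labels, 100 cells were plated in 1 ml of methylcellulose for 5 to 7 days with 4-hydroxytamoxifen (4OHT) at 0.05 µM or ethanol as vehicle, in a cytokine mix of GM-CSF, IL-3, IL-6 and SCF. The 4OHT colonies carry the label of conditional MLL-ENL expression, a leukaemia fusion of the genes Kmt2a and Mllt1, and the ethanol colonies are labelled as control. The labels used here do not state the transgene or the promoter behind it. A count per gene symbol does not separate the fusion from its parent genes, so induction was not checked. Recovered depth was 12907412 to 14317891 reads a library, and 1 read was worth 0.0695 to 0.0802 normalized counts. The ribosomal precursor Rn45s took 4.82% to 7.39% of reads, least in MPP2 with ethanol, and its part in the results was not tested.

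PU.1, the product of Spi1, is an ETS-family factor needed for both granulocytes and monocytes, and C/EBP alpha, from Cebpa, is needed for progenitors to become committed to the granulocyte and monocyte path. From there Gfi1, a zinc-finger repressor, and Cebpe, which drives the late granule programme, belong to the neutrophil branch, while Irf8, Klf4 and Zeb2 belong to the monocyte and dendritic branch. IRF8 also restrains neutrophil formation, and GFI1 represses monocyte genes, so the branches are classically described as antagonists. Cebpb and Cebpd are the inducible C/EBP members, used in emergency granulocyte production, in macrophages and in inflammation.

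With 4OHT, Irf8 stood higher in colonies of both cell types, at ratios to ethanol of 2.003 in MPP2 and 1.64 in ST-HSC colonies. Klf4 and Zeb2 stood higher in ST-HSC colonies (1.59 and 1.39), and Gfi1, Cebpd and Cebpb most in MPP2 colonies (1.54, 1.48 and 1.34). None of the 9 reached 2-fold in log2 values, taken after adding 0.5, in either cell type. Over all tested genes, 3.02% passed 2-fold in MPP2 colonies (1.32% higher and 1.7% lower) and 2.65% in ST-HSC colonies (2.1% higher and 0.545% lower). Between cell types Irf8 was past 2-fold lower in MPP2 than in ST-HSC colonies at both treatments, and Gfi1 in ethanol alone. That is 1 of 9 factors under 4OHT and 2 of 9 in ethanol, against 1.71% and 0.862% of all tested genes on the lower side. On the higher side the background was 5.39% and 6.27%, and in either direction 7.1% and 7.13%, with no factor higher. With 1 library a group these pairs carry no test. The intervals below are 95% counting intervals (exact binomial for ratios, exact Poisson for levels), which leave out variation between cultures and assume that reads are independent molecules.

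**Figure D1:**
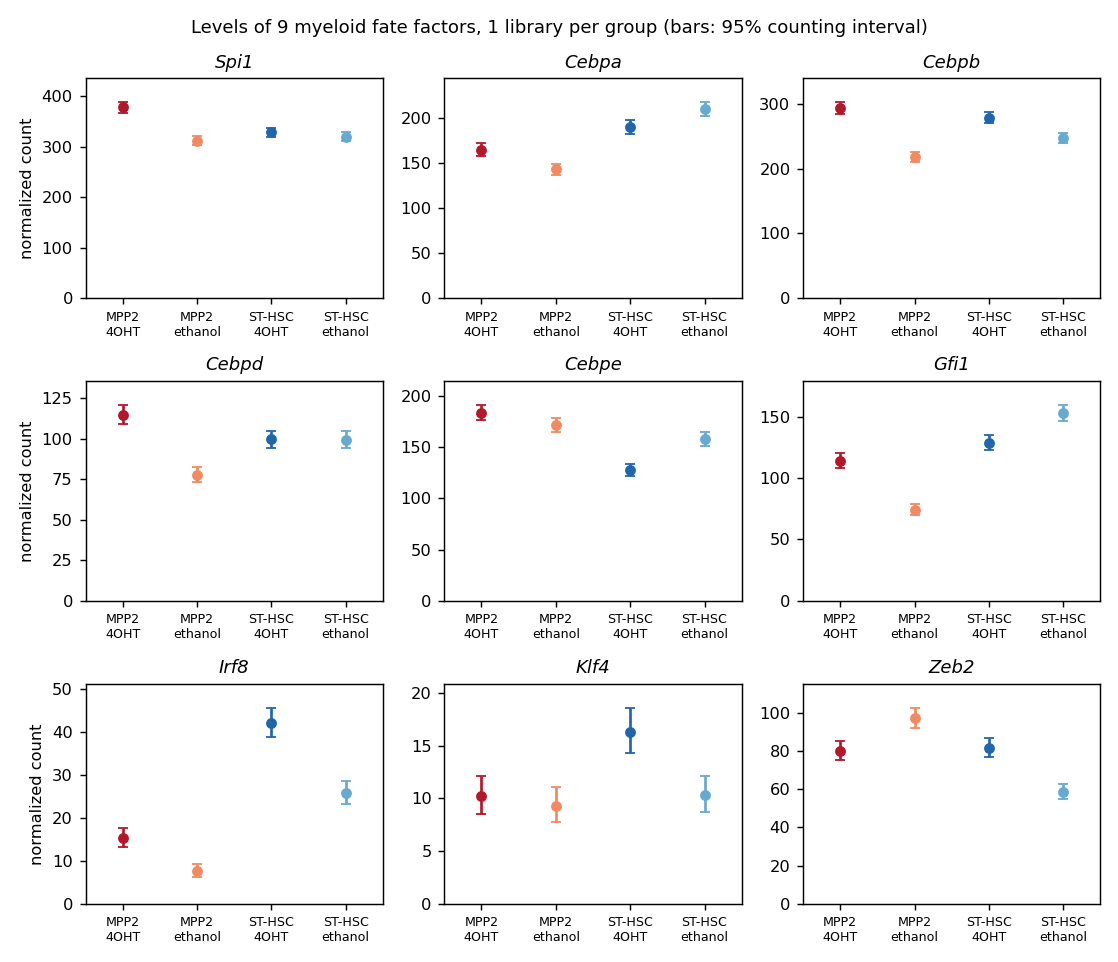
Normalized counts of the 9 factors in each of the 4 libraries, with 95% Poisson counting intervals as bars and each axis starting at 0. Irf8 spans the widest range, with 15.3 and 7.65 in MPP2 colonies with 4OHT and ethanol against 42.1 and 25.7 in ST-HSC colonies, while Spi1 stays between 312 and 378.

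Irf8 (chromosome 8, 120736358 to 120756694 on GRCm38, plus strand) had 15.3 normalized counts in MPP2 colonies with 4OHT and 7.65 in MPP2 colonies with ethanol, from 191 and 106 reads. In ST-HSC colonies it had 42.1 with 4OHT and 25.7 with ethanol, from 586 and 370 reads. The order was therefore ST-HSC with 4OHT, ST-HSC with ethanol, MPP2 with 4OHT and MPP2 with ethanol, and no counting interval touched its neighbour's. The 4OHT to ethanol ratio was 2.003 (1.57 to 2.56) in MPP2 and 1.64 (1.43 to 1.87) in ST-HSC colonies. On the log2 scale with 0.5 added, the differences were 0.96 and 0.70, so the MPP2 value lay just under the 2-fold line. A difference at least as high was seen in 1.42% of all tested genes in MPP2 and in 3.88% in ST-HSC colonies. The sum of the dendritic markers stood higher with 4OHT, as Irf8 did. Over the 7 of 9 that were listed, it was 215 with 4OHT and 98.1 with ethanol in MPP2 colonies, and 331 and 217 in ST-HSC colonies. Cd74 gave the largest part, at 118 and 49.5 in MPP2 and 177 and 118 in ST-HSC colonies. Flt3 and Xcr1 had at most 1.25 normalized counts in any library, so the sum says little about them. Siglech and Cd209a were not listed. Nearly all of the sum came from the antigen-presentation genes Cd74, H2-Aa, H2-Ab1 and H2-Eb1 and from Itgax. It does not measure the amount of dendritic cells. The part of these markers in the Irf8 difference was not tested. In bulk RNA, more cells of a type and more RNA per cell cannot be told apart.

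The 4OHT effect shared by both cell types was fitted with limma over all tested genes. For Irf8 it was 0.83 log2 units (SE 0.14, higher in 2 of 2 cell types) with an adjusted p of 0.114. That misses the threshold of 0.05, which 6 genes (0.0528%) passed, 0.044% of tested genes higher and 0.0088% lower, and an unadjusted p under 0.05 was reached by 1615 genes (14.2%), with Irf8 as the only one of the 9 factors. The call depended on the method: edgeR's quasi-likelihood test on recovered reads gave Irf8 an adjusted p of 0.00997 and called 492 genes, and DESeq2 gave 0.0994 and called 158. For the other 8 factors the limma adjusted p ran from 0.408 for Klf4 to 0.953 for Cebpa. A shared effect past the threshold was not found for them, which does not show that they stayed level. These p-values weigh the size of the shared effect against an error term. With 1 library a group, that error is the departure of the 4 libraries from additive effects, moderated over all tested genes. It is not the spread between animals or cultures.

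Irf8 also had the largest cell type effect of the 9. Under 4OHT its MPP2 to ST-HSC ratio was 0.364 (0.307 to 0.429), and in ethanol it was 0.297 (0.237 to 0.370). The shared cell type effect was -1.56 log2 units (SE 0.14, limma adjusted p = 0.00755, lower in MPP2 at 2 of 2 treatments). It was called among 604 lower genes (5.31%) and 1123 higher genes (9.88%), 15.2% in all. An unadjusted p under 0.05 was reached by 37.7% of tested genes, Irf8 and Gfi1 among them. The limma adjusted p for Irf8 was 0.097 when treatment was left out of the model.

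The promoter of Irf8 is shown because Irf8 is the factor that differed most. The window runs from 250 bases before to 50 bases after the first RefSeq start site (chr8:120736108-120736407 on GRCm38.p6, plus strand). Capitals mark 2 matches to TTCNNNGAA, the letters of a motif known from interferon-responsive promoters.

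Irf8: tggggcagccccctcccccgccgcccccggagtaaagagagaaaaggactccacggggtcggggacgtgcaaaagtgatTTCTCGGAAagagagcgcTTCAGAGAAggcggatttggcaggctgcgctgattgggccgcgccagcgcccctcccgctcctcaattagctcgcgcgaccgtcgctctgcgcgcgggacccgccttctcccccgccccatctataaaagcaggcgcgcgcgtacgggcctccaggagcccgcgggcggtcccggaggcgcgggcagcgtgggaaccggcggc

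The matches begin 171 and 153 bases before the start. The motif reads the same on both strands and was found in 8.30% of 32851 promoter windows of that length. The window also holds TATAAAA, 31 bases before the start, which 3.27% of windows hold in that direction. No match to GAAA, any 2 bases and GAAA, the core of the interferon-stimulated response element, lies on either strand of this window, and 3.44% of windows hold one. These matches describe the letters only.

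Among 8203 genes averaging 10 or more normalized counts, the profiles closest to Irf8 over the 4 libraries were those of H2-Ab1, H2-Eb1 and Hs3st3b1. Likeness was the Euclidean distance between log2 values centred on each gene's mean, and came to 0.29, 0.32 and 0.33. H2-Ab1 and H2-Eb1 encode class II antigen-presenting chains, and both are among the dendritic markers summed above. H2-Ab1 had 21.5 normalized counts with 4OHT and 11.4 with ethanol in MPP2 colonies, and 47.1 and 33.4 in ST-HSC colonies. H2-Eb1 had 13.8 and 5.77 in MPP2 colonies and 28.5 and 17.8 in ST-HSC colonies, in the order 4OHT and ethanol. All 4 points of such a profile come from single libraries.

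Klf4 (chromosome 4, 55527143 to 55532466, minus strand), a zinc-finger factor that promotes monocyte differentiation, had levels of 3.07 to 5.39 normalized counts per kilobase of its longest transcript, at the low end of the 9. It had 10.2 normalized counts with 4OHT and 9.31 with ethanol in MPP2 colonies, and 16.3 and 10.3 in ST-HSC colonies. ST-HSC colonies with 4OHT stood above the other 3 libraries, whose intervals overlapped. The 4OHT to ethanol ratio was 1.59 (1.28 to 1.96) in ST-HSC colonies, on 227 and 148 reads, and 1.09 (0.850 to 1.41) in MPP2 colonies, where no difference was detectable at 127 and 129 reads. Of all tested genes, 4.57% were at least as far above 0 in ST-HSC colonies.

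Zeb2 (chromosome 2, 44983632 to 45117395, minus strand), a zinc-finger repressor that binds E-boxes and is used by monocytes and dendritic cells, differed in opposite directions. It had 80.2 normalized counts with 4OHT and 97.5 with ethanol in MPP2 colonies, a ratio of 0.823 (0.758 to 0.894). In ST-HSC colonies it had 81.9 with 4OHT and 58.8 with ethanol, a ratio of 1.39 (1.27 to 1.52). Under 4OHT the cell types lay together, at an MPP2 to ST-HSC ratio of 0.980 (0.899 to 1.07), while in ethanol MPP2 stood 1.66-fold higher (1.52 to 1.81). The MPP2 difference of -0.28 log2 units became 0.01 once the trend with GC content was removed, and the ST-HSC difference stood at 0.56. Zeb2 is the only one of the 9 with an AT-rich transcript (40.6% GC), and Zeb2os, which is transcribed from the opposite strand, overlaps it. Strand was kept in the libraries, but whether counting used it is not given in the sources used here.

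Gfi1 (chromosome 5, 107716657 to 107726036, minus strand) had 114 normalized counts with 4OHT and 74.2 with ethanol in MPP2 colonies, from 1423 and 1029 reads. In ST-HSC colonies it had 129 with 4OHT and 153 with ethanol, from 1791 and 2200 reads. The library of MPP2 with ethanol stood lowest, and no counting interval touched another. The 4OHT to ethanol ratio was 1.54 (1.42 to 1.67) in MPP2 and 0.841 (0.790 to 0.896) in ST-HSC colonies, opposite in direction. In ethanol the MPP2 to ST-HSC ratio was 0.485 (0.450 to 0.523), past 2-fold at -1.04 log2 units, and 0.739% of tested genes were at least as low. With the GC trend removed it was -0.98 and no longer past 2-fold. Under 4OHT the ratio was 0.887 (0.827 to 0.951). The shared cell type effect of -0.61 (SE 0.23) had a limma adjusted p of 0.130. By edgeR's quasi-likelihood test, which called 3462 of 11370 genes, the adjusted p was 0.0212. By DESeq2, which called 1447, it was 0.0425.

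**Figure D2:**
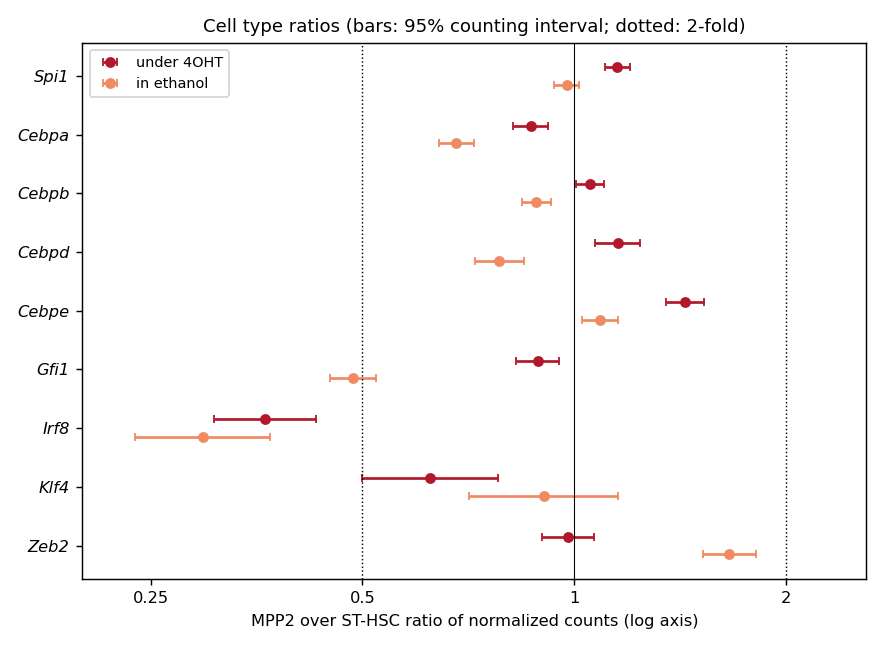
MPP2 to ST-HSC ratios of normalized counts on a log axis, under 4OHT and in ethanol, with 95% counting intervals as bars and dotted lines at 2-fold. Irf8 lies past 2-fold lower at both treatments (0.364 under 4OHT and 0.297 in ethanol), Gfi1 only in ethanol (0.485), and Zeb2 is higher in ethanol (1.66) with a ratio of 0.980 under 4OHT.

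The window around the more upstream of 2 RefSeq start sites of Gfi1 (chr5:107725756-107726055 on GRCm38.p6, minus strand) is shown because Gfi1 is the other factor that passed 2-fold. Capitals mark TTGCTGAA, a match to the C/EBP-type motif TTGCNNAA, and CACCTG, an E-box of the kind that ZEB factors bind.

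Gfi1: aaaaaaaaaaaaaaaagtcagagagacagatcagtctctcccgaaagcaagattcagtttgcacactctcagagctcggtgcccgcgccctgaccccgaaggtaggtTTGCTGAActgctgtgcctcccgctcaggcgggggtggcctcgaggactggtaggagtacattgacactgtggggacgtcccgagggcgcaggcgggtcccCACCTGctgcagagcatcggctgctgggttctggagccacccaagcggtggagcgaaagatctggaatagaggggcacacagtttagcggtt

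The C/EBP-type match begins 143 bases and the E-box 42 bases before the start. TTGCNNAA occurs in 10.8% and CACCTG in 20.2% of all windows on either strand. RefSeq windows were found for 6 of the 9 factors and not for Spi1, Cebpd and Cebpe. GAGGAA, the core that PU.1 prefers, occurs in 28.3% of windows, and among the 6 factors only in those of Zeb2. The genes closest to Gfi1 in profile were Kcnk12, Lrp5 and Mmp19, at distances of 0.09, 0.18 and 0.19.

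Cebpe (chromosome 14, 54710360 to 54712174, minus strand) had 183 normalized counts with 4OHT and 172 with ethanol in MPP2 colonies, and 128 and 158 in ST-HSC colonies. ST-HSC with 4OHT was the lowest library. The 4OHT to ethanol ratio was 1.07 (1.01 to 1.13) in MPP2 and 0.809 (0.760 to 0.861) in ST-HSC colonies. Under 4OHT the MPP2 to ST-HSC ratio was 1.44 (1.35 to 1.53), against 1.09 (1.03 to 1.15) in ethanol. Unlike Gfi1, the other neutrophil-branch factor, Cebpe stood higher in MPP2 than in ST-HSC colonies at both treatments. Its shared cell type effect of 0.32 (SE 0.16) missed the threshold (limma adjusted p = 0.196).

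Cebpa (chromosome 7, 35119293 to 35121928, plus strand), a gene of 1 exon, had 164 normalized counts with 4OHT and 143 with ethanol in MPP2 colonies, and 189 and 210 in ST-HSC colonies. Both MPP2 libraries lay below both ST-HSC libraries. The 4OHT to ethanol ratio was 1.15 (1.08 to 1.23) in MPP2 and 0.904 (0.857 to 0.952) in ST-HSC colonies. The MPP2 to ST-HSC ratio was 0.867 (0.818 to 0.919) under 4OHT and 0.680 (0.642 to 0.720) in ethanol, with a shared effect of -0.38 (SE 0.15, limma adjusted p = 0.135). edgeR's quasi-likelihood test, which called 3462 of 11370 genes, gave that effect an adjusted p of 0.0378.

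Spi1 (chromosome 2, 91082390 to 91115756, plus strand) was the steadiest factor, with a span of 0.28 log2 units over the 4 libraries. It had 378 normalized counts with 4OHT and 312 with ethanol in MPP2 colonies, and 328 and 320 in ST-HSC colonies. MPP2 with 4OHT stood above the other 3, whose neighbouring intervals overlapped. The 4OHT to ethanol ratio was 1.21 (1.16 to 1.26) in MPP2 and 1.03 (0.985 to 1.07) in ST-HSC colonies. Per kilobase of its longest transcript Spi1 lay at percentile 96.7 to 97.1 of tested genes, beside Cebpb at 96.5 to 97.3 and Cebpe at 94.7 to 96.4. At the other end Irf8 lay at percentile 20.3 to 58.9 and Klf4 at 25.8 to 37.8 of levels per kilobase.

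Cebpb (chromosome 2, 167688915 to 167690418, plus strand) was higher with 4OHT in both cell types. It had 293 normalized counts with 4OHT and 218 with ethanol in MPP2 colonies, a ratio of 1.34 (1.28 to 1.41), and 279 and 247 in ST-HSC colonies, a ratio of 1.13 (1.08 to 1.18). The shared effect was 0.30 (SE 0.14, limma adjusted p = 0.422). With the GC trend removed, the Cebpb differences were 0.22 log2 units in MPP2 and 0.15 in ST-HSC colonies. Cebpd (chromosome 16, 15887286 to 15891031, plus strand) had 115 with 4OHT and 77.6 with ethanol in MPP2 colonies, a ratio of 1.48 (1.37 to 1.60). In ST-HSC colonies Cebpd had 99.7 with 4OHT and 99.3 with ethanol, and no difference was detectable (ratio 1.00, 0.932 to 1.08). The MPP2 library with ethanol was the lowest of the 4 for both genes. Exons of Tmem189 overlap 312 bases of Cebpb, and exons of Spidr 562 bases of Cebpd, both on the opposite strand. Smaller exonic overlaps with other annotated genes cover 101 bases of Gfi1 and 51 bases of Cebpa. Reads in such stretches could be counted to either gene.

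**Figure D3:**
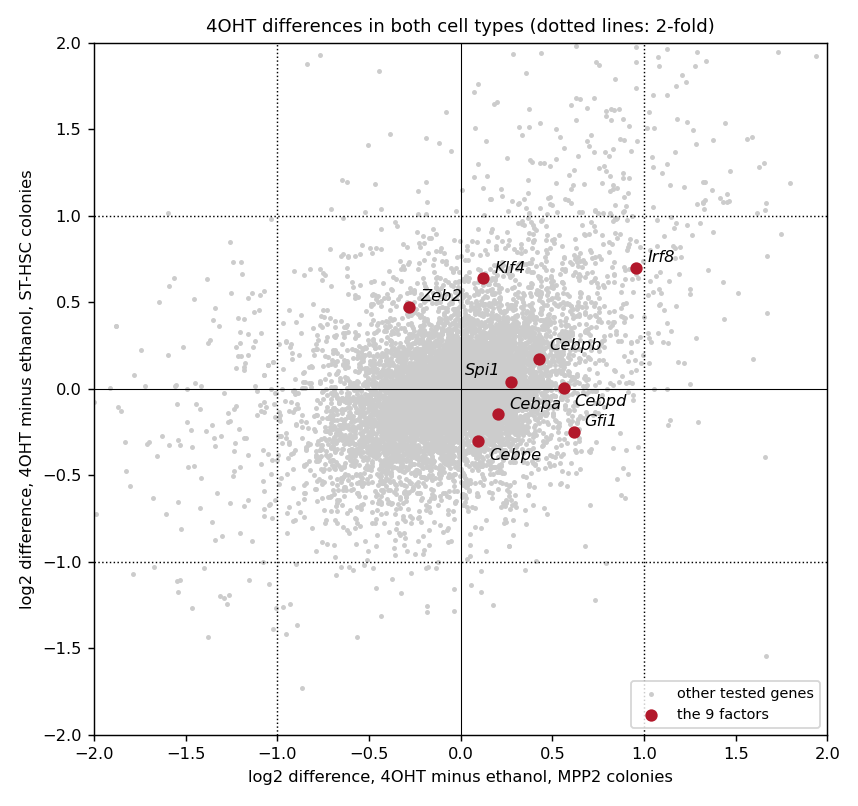
Log2 differences, 4OHT minus ethanol, in MPP2 colonies (x axis) and ST-HSC colonies (y axis) for the 9 factors and the other tested genes, with dotted lines at 2-fold. Irf8 lies at 0.96 and 0.70 and no factor crosses a dotted line. Zeb2, at -0.28 and 0.47, lies on the opposite side from Gfi1, at 0.62 and -0.25, and 88 tested genes beyond 2 log2 units on either axis are not drawn.

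The differences of the 9 factors were centred apart in the 2 cell types. In MPP2 colonies the median was 0.28 log2 units, with 8 of 9 above 0. Over all tested genes the median there was 0.00, with 49.7% above 0. In ST-HSC colonies the median was 0.04, with 6 of 9 above 0, against 0.00 and 49.3% over all tested genes. The MPP2 differences moved with GC content. In 20 bins of all tested genes by transcript GC, the median MPP2 difference ran from -0.38 at 38.3% GC to 0.20 at 60.8% GC, while the ST-HSC median stayed between -0.15 and 0.05. All factors but Zeb2 had transcripts of 51.6% GC, in Cebpd, to 67.2% GC, in Cebpb. With the bin medians removed, the median of the 9 in MPP2 colonies was 0.10, with 6 above 0 and 2 below, and Cebpa at its bin median. Spi1 then stood at 0.10, Cebpb at 0.22, Cebpe at -0.11 and Klf4 at -0.00. Irf8, Gfi1 and Cebpd stood at 0.86, 0.48 and 0.47 after the same step. In ST-HSC colonies Irf8, Klf4 and Zeb2 stood at 0.65, 0.60 and 0.56.

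**Figure D4:**
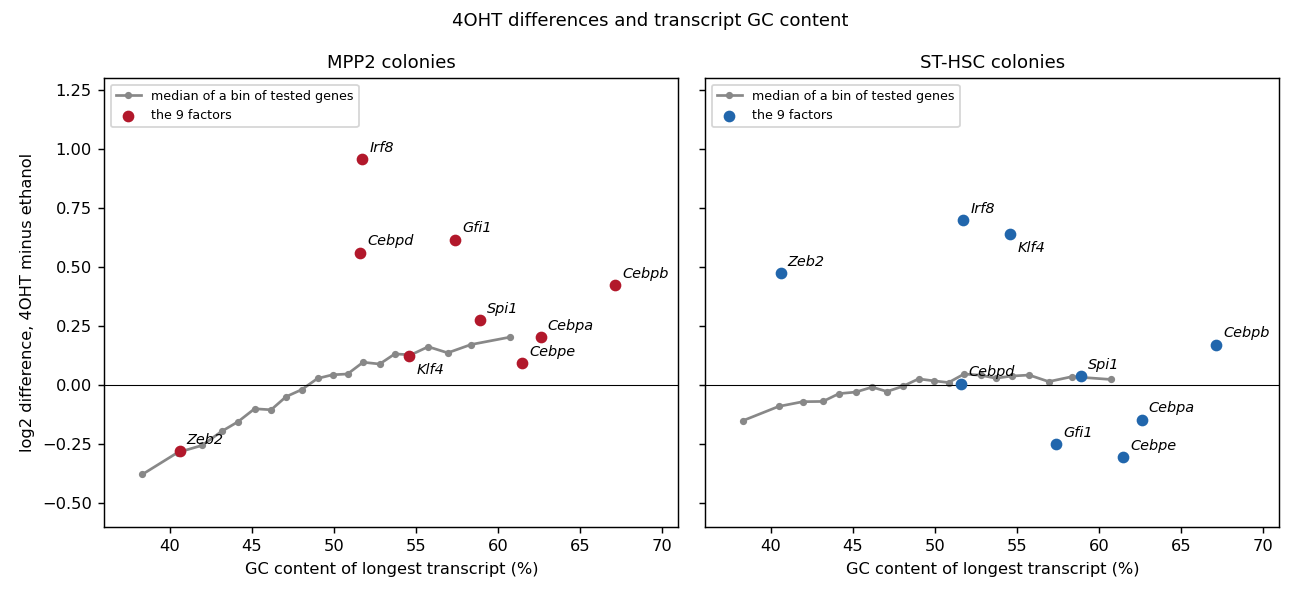
Log2 differences, 4OHT minus ethanol, against GC content of the longest transcript, for MPP2 colonies (left) and ST-HSC colonies (right). The grey line joins the medians of 20 bins of tested genes, and in MPP2 colonies Cebpa, Klf4 and Zeb2 lie close to it while Irf8, Gfi1 and Cebpd lie above it.

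Because the branches are described as antagonists, factor pairs were also set against each other within each library, per kilobase of transcript. Irf8 relative to Gfi1 was 0.111 with 4OHT and 0.0849 with ethanol in MPP2 colonies, and 0.270 and 0.139 in ST-HSC colonies. The ratio was therefore 1.303 times higher with 4OHT in MPP2 (1.01 to 1.69) and 1.95 times higher in ST-HSC colonies (1.68 to 2.25). Irf8 relative to Cebpe was 1.87 times higher in MPP2 (1.46 to 2.42) and 2.02 times higher in ST-HSC colonies (1.75 to 2.34). Zeb2 relative to Gfi1 went opposite ways, at 0.535 times in MPP2 (0.477 to 0.601) and 1.66 times in ST-HSC colonies (1.48 to 1.85). So did Klf4 relative to Gfi1, at 0.712 times in MPP2 (0.545 to 0.929) and 1.88 times in ST-HSC colonies (1.51 to 2.36). The pair ratios were not corrected for GC content. With the GC trend removed, the MPP2 differences of Zeb2 and Gfi1 were 0.01 and 0.48 log2 units. Spi1 relative to Cebpa was 1.05 times as high in MPP2 (0.975 to 1.13) and 1.14 times as high in ST-HSC colonies (1.06 to 1.21). Spi1 relative to Gata2, a factor of stem, mast and megakaryocyte cells that PU.1 opposes, was 3.5 times higher in MPP2 (3.21 to 3.82) and 1.83 times higher in ST-HSC colonies (1.52 to 2.19). Cebpa relative to Gata2 was likewise 3.33 times higher in MPP2 (3.02 to 3.68) and 1.61 times higher in ST-HSC colonies (1.34 to 1.94). The difference was therefore not particular to Spi1. Gata2 itself had 71.2 normalized counts with 4OHT and 206 with ethanol in MPP2 colonies, and 14.2 and 25.3 in ST-HSC colonies.

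Markers of other cells moved with these comparisons. The 11 mast cell and basophil markers summed to 606 normalized counts with 4OHT and 1684 with ethanol in MPP2 colonies, and to 167 and 216 in ST-HSC colonies. Kit made up 90.5 and 84.1 of these in MPP2 and 92.9 and 76.4 in ST-HSC colonies. The median 4OHT difference of the 11 was -1.49 log2 units in MPP2 and -0.98 in ST-HSC colonies. The 9 neutrophil markers in the table summed to 40304 and 41415 in MPP2 and to 17589 and 25105 in ST-HSC colonies. The 10 monocyte and macrophage markers summed to 1629 and 1288 in MPP2 and to 1471 and 1197 in ST-HSC colonies. Ly6c2 made up 1002 and 896 of these in MPP2 and 926 and 868 in ST-HSC colonies. The median 4OHT difference of the 9 tested was 0.62 log2 units in MPP2 and 0.63 in ST-HSC colonies. The 9 erythroid markers in the table summed to 10.2 and 141 in MPP2 and to 1.08 and 0.765 in ST-HSC colonies. The 8 megakaryocyte markers summed to 656 and 705 in MPP2 and to 70.3 and 88.7 in ST-HSC colonies, and the 8 eosinophil markers to 108 and 217 in MPP2 and to 31.8 and 34.4 in ST-HSC colonies. Of 8 lymphoid markers 2 were listed, summing to 20.5 and 23.3 in MPP2 and to 15.7 and 6.61 in ST-HSC colonies. Of 7 stromal and endothelial markers 5 were listed, summing to 119 and 167 in MPP2 and to 74.7 and 84.8 in ST-HSC colonies. Pecam1 alone made up 111 and 160 of these in MPP2 and 71.8 and 80.6 in ST-HSC colonies. Each pair of sums or levels gives 4OHT and then ethanol. The part of these cell types in the factor levels was not tested.

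Relatives of the 9 factors past 2-fold with 4OHT were mainly IRF genes. Of 7 tested other IRF genes, Irf7, a driver of interferon genes, and Irf9, a factor of interferon signalling, were at least 2-fold higher with 4OHT in ST-HSC colonies, where 2.1% of all tested genes were. Irf7 had 19.8 normalized counts with 4OHT and 13.9 with ethanol in MPP2 colonies, and 31.3 and 3.69 in ST-HSC colonies. Irf9 had 24.9 and 14.3 in MPP2 and 19.8 and 7.79 in ST-HSC colonies. Irf4, named after its values were seen, was the sole gene of this list at least 2-fold lower, in both cell types. It had 3.61 and 8.66 in MPP2 and 1.80 and 4.45 in ST-HSC colonies. Of all tested genes 1.7% were at least 2-fold lower in MPP2 and 0.545% in ST-HSC colonies. The list's medians were 0.40 in MPP2 and 0.17 in ST-HSC colonies, against 0.00 over all tested genes in each. Irf2 (-0.20 and -0.02 in MPP2 and ST-HSC colonies) and Irf3 (0.12 and 0.08) lay near 0.

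No tested gene of the other C/EBP members (3), of 8 ETS relatives of Spi1, or of 8 relatives and corepressors of Gfi1 and Zeb2 reached 2-fold with 4OHT in either cell type. The other C/EBP genes Cebpg and Cebpz stood at -0.21 and -0.48 log2 units in MPP2 and at -0.41 and 0.03 in ST-HSC colonies. Among ETS genes, Ets2 stood at 0.35 and Elf4 at 0.15 in MPP2 colonies, with Elf1 and Gabpa both at -0.45. Zeb1, the relative of Zeb2, stood at -0.29 in MPP2 and -0.70 in ST-HSC colonies, where Zeb2 stood at 0.47. Id2, an inhibitor of E proteins, stood at -0.59 in MPP2 and -0.39 in ST-HSC colonies, and the corepressor genes Hdac1 and Kdm1a lay between -0.11 and 0.07. Of 8 KLF relatives Klf1, an erythroid factor named after its values were seen, was at least 2-fold lower in MPP2 colonies. It had 1.04 normalized counts with 4OHT and 3.10 with ethanol there, from 13 and 43 reads. Of all tested genes 1.7% were 2-fold lower in MPP2 colonies. No KLF relative was past 2-fold in ST-HSC colonies. Klf2 stood at -0.17 in MPP2 and -0.68 in ST-HSC colonies, Klf6 at -0.66 and -0.07, Klf10 at 0.22 and 0.09, and Klf13 at 0.21 and -0.16.

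Of 26 tested other factors of granulocyte and monocyte fate, 3 were at least 2-fold lower with 4OHT in MPP2 colonies and 1 in ST-HSC colonies, against 1.7% and 0.545% of all tested genes. The lower ones in MPP2 were Gata2, Gata1 and Egr1. The list is not confined to granulocyte and monocyte factors, since Gata2 is the stem, mast and megakaryocyte factor described above. Egr1, an early-response factor that favours macrophages, had 54.5 normalized counts with 4OHT and 158 with ethanol. In ST-HSC colonies Gata1 was the lower one, at 0.791 normalized counts with 4OHT and 2.09 with ethanol, from 11 and 30 reads. Id3 was at least 2-fold higher there, at 1.87 and 0.417, from 26 and 6 reads. Of all tested genes 2.1% were 2-fold higher in ST-HSC colonies. Id3 and Gata1 were named after their values were seen. Nr4a1 and Nab2 stood at 0.52 and 0.49 in MPP2 and at 0.03 and 0.10 in ST-HSC colonies.

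Granulocyte genes known as C/EBP targets differed in both directions between the cell types. Of 19 tested, 11 were called higher and 4 lower in MPP2 than in ST-HSC colonies by the shared cell type effect (limma, adjusted p under 0.05), beside 9.88% and 5.31% of all tested genes. The 4 lower were Elane, Mpo, Prtn3 and Ctsg, which encode the azurophil granule proteins of early neutrophil precursors. Mpo, myeloperoxidase, had 2484 normalized counts in MPP2 and 4357 in ST-HSC colonies under 4OHT, and 1971 and 4549 in ethanol (effect -1.01, adjusted p = 0.0251). The 11 higher were Ltf, Camp, Ngp, Lcn2, Mmp9, S100a9, Lyz2, Cd177, Chil3, Padi4 and Cxcr2, of which Ltf, Camp and Ngp belong to the later granules that need C/EBP epsilon. No list by stage was tested. Ltf, lactoferrin, had 5521 in MPP2 and 1432 in ST-HSC colonies under 4OHT, and 4355 and 1856 in ethanol (effect 1.59, adjusted p = 0.0180). Mpo and Ltf were named as examples after their values were seen. The neutrophil marker sums, which share genes with this list, were also higher in MPP2 colonies, and their part was not tested. With 4OHT none of the 19 reached 2-fold in either cell type. Lyz2, lysozyme, stood at 0.71 in MPP2 and 0.79 in ST-HSC colonies, Mmp8 at 0.30 and 0.63, S100a8 at -0.34 and -0.47, and Camp at 0.05 and -0.90.

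Monocyte and dendritic genes known as targets of PU.1, IRF8 or KLF4 had medians of 0.37 in MPP2 and 0.33 in ST-HSC colonies. Of 18 tested genes 14 were above 0 in each, against 49.7% of all tested genes in MPP2 and 49.3% in ST-HSC colonies. At least 2-fold higher were 3 in MPP2 colonies (Csf1r, Fcgr1 and Cd74) and 1 in ST-HSC colonies (Ctss), and none was 2-fold lower. Of all tested genes 1.32% were 2-fold higher in MPP2 and 2.1% in ST-HSC colonies. Csf1r, the M-CSF receptor, had 128 normalized counts with 4OHT and 54.2 with ethanol in MPP2 colonies, and 130 and 66.97 in ST-HSC colonies. Cd74, the class II invariant chain, had 118 and 49.5 in MPP2 and 177 and 118 in ST-HSC colonies. Fcgr1 and Ctss were named after their values were seen. Ccr2, a chemokine receptor of inflammatory monocytes, had 12.3 with 4OHT and 21.1 with ethanol in MPP2 colonies, and 53.5 and 34.4 in ST-HSC colonies. Btk stood at -0.21 and -0.01 in MPP2 and ST-HSC colonies. By the shared 4OHT effect none of the 18 was called with limma, beside 0.0528% of all tested genes. By the shared cell type effect 5 were called higher in MPP2 and 2 lower, beside 9.88% and 5.31% of all tested genes. Many of these targets, Csf1r among them, are also in the monocyte and macrophage marker list, and Cd74 is also a dendritic marker. The lists are therefore not separate observations, and the part of those cells was not tested.

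Inflammatory genes known as targets of C/EBP beta and delta lay on both sides of 0 with 4OHT. Of 11 tested, 2 stood past 2-fold higher and 5 past 2-fold lower in MPP2 colonies, with a median of -0.49, and 2 were higher and none lower in ST-HSC colonies, with a median of 0.07. Over all tested genes the shares were 1.32% higher and 1.7% lower in MPP2 and 2.1% and 0.545% in ST-HSC colonies. Saa3, an acute-phase gene, had 51.5 normalized counts with 4OHT and 13.1 with ethanol in MPP2 colonies, and 62.2 and 16.0 in ST-HSC colonies. It rose by a shared effect of 1.93 log2 units (limma adjusted p = 0.0477). No gene at all was called for 4OHT, Saa3 included, with 0.1 added, without a filter, with CPM of the library total, with DESeq2 size factors, with the GC trend removed or with treatment as the only term. In the mast cell and basophil list, Gzmb, a granzyme gene named after its values were seen, fell by 2.30 log2 units (limma adjusted p = 0.0477), with the same loss. Hp, haptoglobin, had 507 and 228 in MPP2 and 413 and 327 in ST-HSC colonies. Il6 had 7.22 and 56.9 in MPP2 and 1.65 and 3.13 in ST-HSC colonies, and Ptgs2, cyclooxygenase, had 3.45 and 25.1 in MPP2 and 7.55 and 8.14 in ST-HSC colonies. The other lower genes in MPP2 were Ccl3, Cxcl2 and Arg1, and the other higher gene in ST-HSC colonies was Il1rn. These 4 genes were named after their values were seen.

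**Figure D5:**
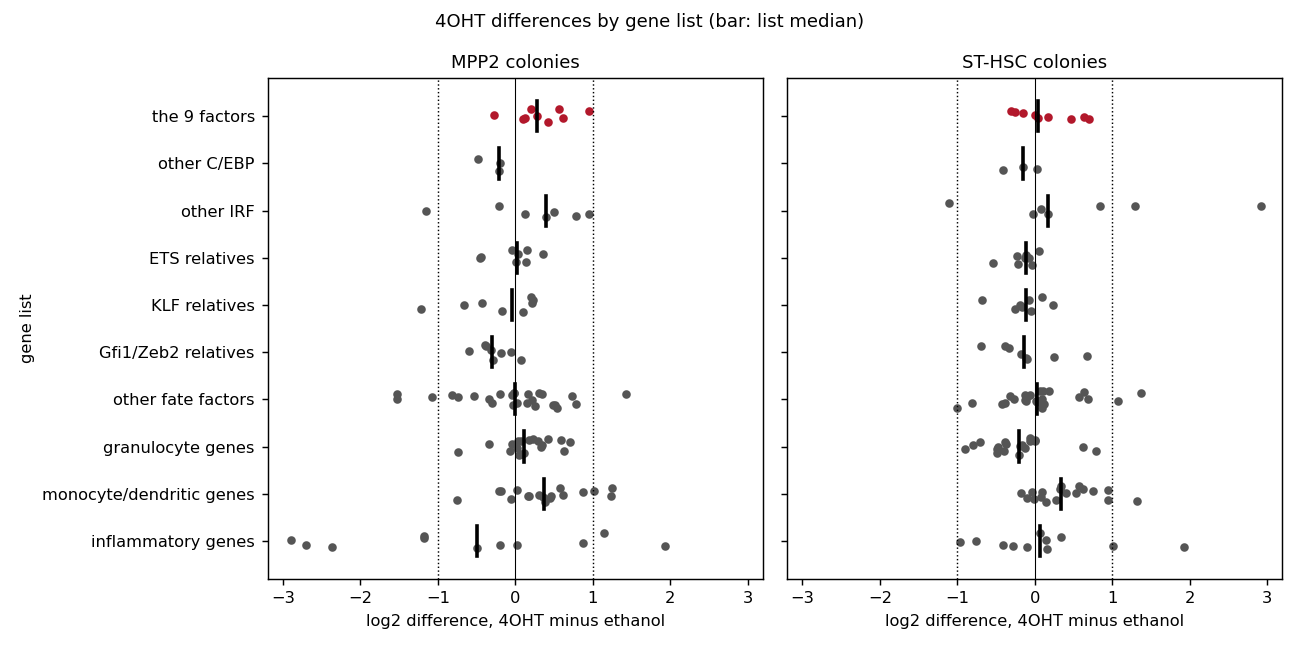
Log2 differences, 4OHT minus ethanol, of the tested genes of each list in MPP2 colonies (left) and ST-HSC colonies (right), 1 point a gene, with the list median as a bar and dotted lines at 2-fold. The 9 factors lie inside the 2-fold lines in both panels, while IRF relatives and inflammatory genes reach beyond them.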

How the data were processed

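A single deposited table gives 4 normalized columns, 1 per library, and was treated as a signal. All 57292 values lie within 1e-06 of a whole multiple of what 1 read is worth in that library, so 100% were turned back into whole reads. The submitters' processing notes name the mm10 build and the tools RSEM, edgeR, Bowtie2 and Trimmomatic 0.36, without their roles or an annotation. Depth, 12907412 to 14317891 reads, sets the counting intervals, which cover counting error only.

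Tested genes (11370) had a mean of at least 1, and log2 was taken after adding 0.5, which shrinks differences of low genes. Shared effects came from limma 3.58.1 with treatment and cell type as additive terms (3 coefficients, 1 residual degree of freedom, Benjamini-Hochberg over all tested genes). Nothing says that the libraries are more than 1 culture each. The 9 factors and all gene and marker lists were chosen with earlier results of these data known. Of each list, the 2 highest and 2 lowest genes by mean 4OHT difference, with a mean of at least 10, are named, and any past 2-fold with the same sign in both cell types. A gene of these lists is not reported here. Genes most like a factor were the 3 closest for factors spanning at least 1 log2 unit.

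Alternatives were other added constants, filters and scalings, removal of the GC trend in 20 bins, limma with trend or a single term, edgeR 4.0.16 and DESeq2 1.42.0 on recovered reads. The limma and edgeR fits were tested on simulated data. Coordinates, transcript length and GC come from GENCODE release M21 (GRCm38, the assembly of mm10), which matched 14190 of 14323 symbols, and 11299 tested genes had a GC value. At most 2.00% of the 31-base words of a factor's transcripts occur in another gene. Promoter windows come from RefSeq on GRCm38.p6. Computing used matplotlib 3.10.9, scipy 1.17.1, pandas 2.3.3 and numpy 2.4.6 under Python 3.11.15, and R 4.3.3.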

Additional observations from a re-analysis of the deposited data

Results flagged for a closer look

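Among the 9 factors, 4 had 4OHT differences of opposite sign in the 2 cell types, with counting intervals of both ratios clear of 1. The difference between the cell types was not tested, since each combination has 1 library. The log2 4OHT difference in MPP2 minus that in ST-HSC colonies was 0.87 for Gfi1 (0.62 and -0.25), 0.40 for Cebpe (0.10 and -0.30), 0.35 for Cebpa (0.20 and -0.15) and -0.75 for Zeb2 (-0.28 and 0.47). With the GC trend removed, the MPP2 difference was 0.48 for Gfi1, -0.11 for Cebpe and 0.01 for Zeb2, and Cebpa lay at its bin median, so of these 4 only Gfi1 had clearly opposite signs after that step.

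Named genes of the lists with the same pattern were Camp at 0.95 (0.05 in MPP2 and -0.90 in ST-HSC colonies), Klf13 at 0.37 (0.21 and -0.16) and Ccr2 at -1.38 (-0.76 and 0.63). With the GC trend removed, the MPP2 and ST-HSC differences were -0.08 and -0.94 for Camp, no longer opposite, 0.05 and -0.21 for Klf13, and -0.38 and 0.78 for Ccr2.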

How the results depend on the processing

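No paired analysis was possible because each group has 1 library, so no replicate number could serve as a block; cell type, which does pair 4OHT with ethanol, is already a term of the limma fit. Of 36 differences of the 9 factors, 29 did not change sign under any of 7 alternatives and 7 small ones did, 6 of them with the GC trend removed. The count of factors past 2-fold stayed at 0 in MPP2 and 0 in ST-HSC colonies for 4OHT and at 1 between cell types under 4OHT in all 7. In ethanol it was 2, or 1 with the GC trend removed, where Gfi1 dropped out.

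The number of genes called depended strongly on the method; the cause was not tested. For the shared 4OHT effect it was 6, against 0 with 0.1 added, without a filter, with CPM of the library total, with DESeq2 size factors, with the GC trend removed or with treatment as the only term. It was 228 with 2 added, 230 at a mean of at least 5, 598 with trend, 492 in edgeR and 158 in DESeq2. For the shared cell type effect it was 1727, against 852 with 0.1 added, 2890 with 2 added, 559 without a filter, 2719 at a mean of at least 5, 3761 with trend, 264 with cell type as the only term and 3462 in edgeR. It was 1299 with CPM of the library total, 1366 with DESeq2 size factors, 1274 with the GC trend removed and 1447 in DESeq2.

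Irf8's shared 4OHT effect ranged from 0.76 to 0.86 log2 units and was called in 4 of 11 alternatives (adjusted p 0.00456 to 1.00, limma, edgeR or DESeq2). Its cell type effect ranged from -1.59 to -1.44 and was called in 10 of 11 (adjusted p 9.26e-07 to 0.097). By the cell type effect Gfi1 was called in 3, Cebpa in 2 and Cebpe in 1 of 11. These calls came from limma with trend, edgeR or DESeq2, which called 3761, 3462 and 1447 of 11370 genes. Depth limits Klf4 and Irf8 most, at 106 to 586 reads.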
